A study of Homo sapiens with 6 samples.

Results

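The hnRNPs and the core proteins of the spliceosome were examined as 57 of the 58735 genes measured in RKO cells. They are the protein-coding genes of GENCODE release 29 whose symbol begins with HNRNP, SNRP, SF3A, SF3B or PRPF, together with TRA2A and TRA2B. Of 63 candidates, 6 were left out, namely HNRNPD and the single-exon copies HNRNPA1L2 and the HNRNPCL genes. The rule uses symbols and annotation. RKO is an established human colorectal carcinoma line, here grown in DMEM with serum. The 3 Vector libraries are the negative control, and the 3 LOC_OE libraries come from cells that stably carry the full-length lncRNA LOC101927668 in the lentiviral plenti6 plasmid, under puromycin selection. Only this 1 cell line was sequenced, and whether the replicates trace to separate infections is not stated. Total RNA was isolated, and RNA sequencing was used to find the genes that differ between LOC_OE and Vector.

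Heterogeneous nuclear ribonucleoproteins (hnRNPs) coat nascent transcripts in the nucleus and influence splicing, export and stability of mRNA. The Sm proteins form a ring on the small nuclear RNAs of the spliceosome, SF3A and SF3B belong to the U2 particle that recognises the branch point, and many PRPF proteins build or remodel the tri-snRNP. TRA2A and TRA2B bind splicing enhancers in exons. These genes are expressed in most dividing cells, and several of the RNA-binding proteins among them limit their own mRNA through alternative exons. HNRNPD, the protein partner of LOC101927668 in the study, is of the same family but was not a member here.

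Expression was given as FPKM, the number of fragments on a gene per exon length and per library size. The reads behind the FPKM could be recovered for 100% of the values above 0, and gave 15008842 to 18410231 reads on genes per library. The library sizes implied by the FPKM were 18763335, 18569332 and 18603282 in Vector and 16010292, 16036779 and 14692797 in LOC_OE. They lay above the reads on genes in every Vector library and below them in every LOC_OE library. Compared with scaling by the reads on genes, such sizes raise the FPKM of the LOC_OE libraries and lower those of the Vector libraries. The size of this part in the fold changes was not tested, and results after rescaling to the same sum of FPKM are given below. LOC101927668 itself, listed as ENSG00000243004, took up 231, 270 and 276 reads in LOC_OE replicates 1 to 3 but only 1, 1 and 0 in the controls. LOC_OE replicate 1 stood apart from the other LOC_OE libraries. Across genes, its log2(FPKM + 1) gave a Pearson r of 0.967 with LOC_OE replicate 2 and of 0.962 with replicate 3, whereas those 2 libraries correlated at 0.982 and the Vector libraries at 0.982 to 0.983. The counts of calls and the fold changes of named members are therefore also given without LOC_OE replicate 1. Of the epithelial markers, KRT8, KRT18 and EPCAM were present at 4.76 to 67.5 FPKM and CDH1 was listed at 0. CDX2, a colon epithelial factor, was at 3.97 to 5.56 FPKM, while VIL1 did not exceed 0.0156 FPKM. Markers of leukocytes, fibroblasts and endothelial cells did not exceed 0.142 FPKM in any library. KRT18 moved with LOC_OE replicate 1, at 67.5 FPKM there against 18.1 to 25.3 FPKM in the other 5 libraries, and its part in the results was not tested.

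Promoter sequences of members that stand for the different patterns are shown first, since many members moved together. RefSeq promoters on GRCh38.p14 were found for 48 of the 57 members, and each window runs from 250 bases before to 50 bases after the start. The following lines give the 100 bases before the start, 5′ to 3′ on the strand of the gene. Capitals mark the CCAAT box (CCAAT), the ETS core (CCGGAAG) and the CRE core (TGACG) on either strand, and no marked stretch overlaps another. HNRNPK and HNRNPU were called higher in LOC_OE, SNRPF and SNRPG are Sm genes that were higher in all LOC_OE libraries, HNRNPL and SF3B5 were above the Vector libraries in LOC_OE replicate 1 alone, and PRPF6 was called lower.
HNRNPK, chr9:83980616-83980715, minus strand: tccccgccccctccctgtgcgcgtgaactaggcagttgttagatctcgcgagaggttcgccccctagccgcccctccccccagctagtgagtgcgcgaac
HNRNPU, chr1:244864544-244864643, minus strand: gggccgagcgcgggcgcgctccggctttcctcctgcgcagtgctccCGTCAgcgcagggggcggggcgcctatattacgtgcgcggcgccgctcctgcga
SNRPF, chr12:95858852-95858951, plus strand: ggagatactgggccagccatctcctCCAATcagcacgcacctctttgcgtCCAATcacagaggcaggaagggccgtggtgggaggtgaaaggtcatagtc
SNRPG, chr2:70293459-70293558, minus strand: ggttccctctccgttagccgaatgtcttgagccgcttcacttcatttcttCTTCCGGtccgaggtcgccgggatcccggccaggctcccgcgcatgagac
HNRNPL, chr19:38852348-38852447, minus strand: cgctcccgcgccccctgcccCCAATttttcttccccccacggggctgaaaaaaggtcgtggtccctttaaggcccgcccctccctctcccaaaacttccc
SF3B5, chr6:144095574-144095673, minus strand: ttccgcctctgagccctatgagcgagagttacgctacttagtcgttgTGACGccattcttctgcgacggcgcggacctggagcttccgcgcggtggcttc
PRPF6, chr20:63981032-63981131, plus strand: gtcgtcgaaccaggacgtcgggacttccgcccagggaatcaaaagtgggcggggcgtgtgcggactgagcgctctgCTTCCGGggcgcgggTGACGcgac
The HNRNPK line holds no capitals because none of these letters lies in its 100 bases. HNRNPK, HNRNPL and SNRPG have further RefSeq starts, whose sequences are not shown.

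In the whole 300-base windows and on both strands, the CCAAT letters lay in a promoter of 30 of the 48 members matched (62.5%), against 39.7% of the 27305 genes with a promoter. The CRE core lay in 27 members (56.2%) against 28.4% of those genes, and the ETS core in 17 members (35.4%) against 12.2%. TATAAA was found in 3 members (6.25%) against 13.99%, and the NRF1 core GCATGCGC also in 3 members, against 3.68%. The genes tested for expression are a closer background, although only 9464 of them had a promoter in the table. Among these the shares were 43.1% for CCAAT, 40.8% for the CRE core, 23.4% for the ETS core, 7.69% for TATAAA and 6.75% for the NRF1 core. The match of letters is a description and was not tied to the expression of any member.

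Of the 57 members, 55 passed the filter of at least 0.5 FPKM in at least 3 libraries and were tested with limma on log2(FPKM + 1), with Benjamini-Hochberg adjustment over 16061 genes. Of the 55, 15 were higher in LOC_OE and 2 were lower at an adjusted p under 0.05. Among the 15 were HNRNPA1, HNRNPA1P48, HNRNPC, HNRNPH1, HNRNPH3, HNRNPK, HNRNPM, HNRNPU, SNRPD1, SF3B6, PRPF3, PRPF39, TRA2A and TRA2B, and the 2 were SF3A2 and PRPF6. Among all genes tested, 10.7% were higher and 9.74% were lower by the same rule. With a fold change of at least 1.5 added, 7 members were higher and 0 were lower, where all genes gave 4.63% and 5.58%. At an unadjusted p under 0.05, 27 members were higher and 2 lower, where all genes gave 19.4% and 17.1%. Of these, 10 and 0 members also reached the fold change, against 5.98% and 6.76% of all genes. The log2 fold change was above 0 for 48 of the 55 members, beside 8357 of 16061 genes. The median was 0.30 for the members against 0.019 over all genes. Exact permutation of 3 libraries against 3 cannot give a p below 0.10, so single members are judged by the fit across genes.

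The number of calls depended on single libraries. Without LOC_OE replicate 1, limma called 27 members higher and 5 lower, including each of the 15 and the 2, beside 19.4% and 16.1% of all genes. With the fold change, 5 members were then higher and 1 was lower, beside 4.56% and 5.84% of all genes. Without Vector replicate 1 the fit called 2 members higher, and without Vector replicate 2 or 3 it called 0, with 0 lower in these 3 fits. At an unadjusted p under 0.05 the same 3 fits gave 19, 15 and 18 members higher and 2 lower each. At that threshold all genes gave 2431, 2164 and 2272 of 16061 higher and 2182, 2050 and 2162 lower. At an adjusted p under 0.05 all genes lost calls in these fits too, with 2.15%, 0.897% and 1.24% higher and 2.35%, 1.41% and 1.73% lower. Without LOC_OE replicate 2 or 3, 9 and 11 members were higher and 0 lower, with 2 lower at an unadjusted p under 0.05. All genes then gave 4.87% and 7.15% higher and 5.48% and 6.51% lower. The sign of the 15 and the 2 was the same in every one of these 6 fits.

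Scaling mattered as well. Rescaling the libraries to the same sum of FPKM shifted the median log2 fold change of all genes from 0.019 to -0.18. That of the members shifted from 0.30 to 0.043. The members then lay 33 of 55 above 0, beside 4971 of 16061 genes. This share, and that of 8357 of 16061 without rescaling, also stand beside the counts above 0 of each class below. By that scaling 7 members were higher, namely HNRNPK, HNRNPC, HNRNPM, HNRNPH1, SNRPD1, TRA2A and TRA2B, and SF3A2, SF3B2 and PRPF6 were lower. Among all genes 4.46% were then higher and 19.5% lower. These 7 are also the members that passed the fold change above. After median-of-ratios rescaling 14 members were higher and 2 lower, with 45 of 55 above 0 and a median of 0.26. All genes then gave 1576 higher and 1730 lower of 16061, with 7912 above 0 and a median of -0.0069. By quantile normalization 10 members were higher and 5 lower, with 36 of 55 above 0 and a median of 0.091. All genes gave 1676 higher and 1802 lower there, with 8288 of 16061 above 0 and a median of 0.015. The summed FPKM of the members was 2599, 2522 and 2480 in Vector and 3996, 2907 and 2743 in LOC_OE, and the summed FPKM of all genes tested was also higher in LOC_OE.

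**Figure D1:**
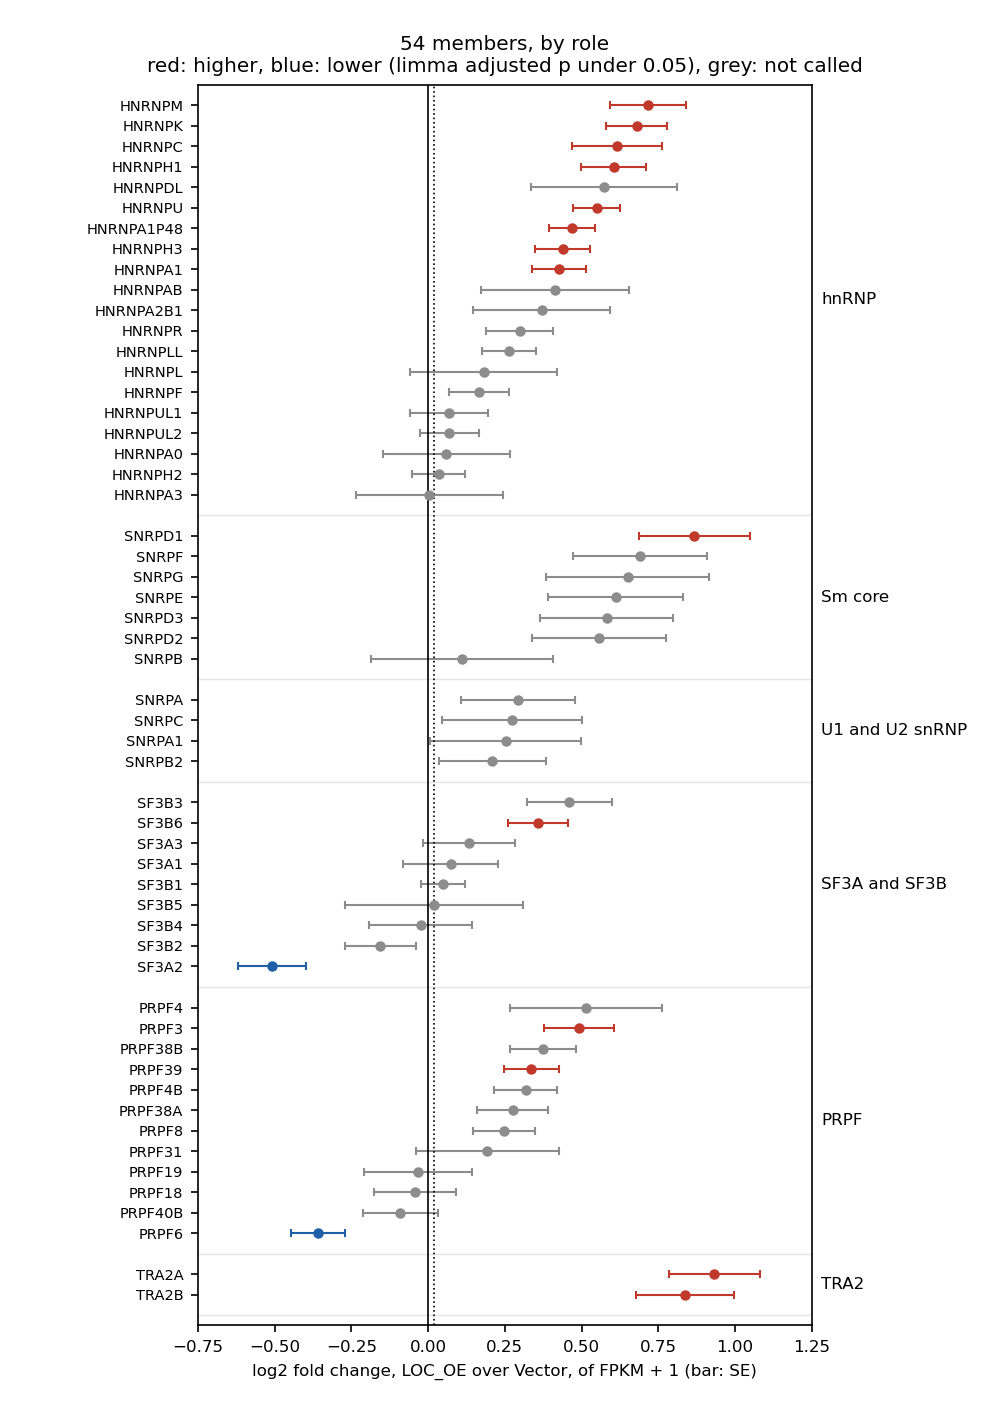
Log2 fold change of FPKM + 1, LOC_OE over Vector, for 54 of the 55 members tested, grouped by role and ordered within each role, with the SE as bar. Red points are members called higher and blue points the 2 called lower, grey points were not called, the solid line is 0 and the dotted line is the median of all genes (0.019).

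Among the hnRNPs, 8 of 20 tested were higher and 0 were lower, where all genes gave 10.7% and 9.74%. An unadjusted p under 0.05 was found for 11 of 20, against 5855 of all 16061 genes. All 20 log2 fold changes were above 0, with a median of 0.39, but 7 of them were below 0 after rescaling to the same sum and the median was then 0.13. Without LOC_OE replicate 1, 11 were higher and 1 was lower, beside 19.4% and 16.1% of all genes, and the median of the hnRNPs was 0.20. HNRNPA1, the most abundant member and a repressor of splice sites, held 26.8% to 26.9% of the summed hnRNP FPKM in the Vector libraries and 23.1%, 29.8% and 28.9% in the LOC_OE libraries. It lies on chromosome 12 from 54280193 to 54287088 on the plus strand of GRCh38.

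HNRNPA1 was at 314, 318 and 315 FPKM in Vector and at 421, 444 and 408 FPKM in LOC_OE. The groups did not overlap, and LOC_OE replicate 1 was not the highest library. The log2 fold change was 0.43 ± 0.087 (SE, n = 3 per group, limma adjusted p = 0.022), and 0.43 without LOC_OE replicate 1 (adjusted p = 0.0044). After rescaling to the same sum it was 0.16 with an adjusted p of 0.25. By quantile normalization it was 0.0081 (limma adjusted p = 0.97). HNRNPA1 was called in 2 of the 6 fits that leave out 1 library. HNRNPU, which binds RNA and chromatin as scaffold attachment factor A, had 30.5, 29.7 and 30.8 FPKM in Vector and 43.1, 47.6 and 44.0 FPKM in LOC_OE. Here too LOC_OE replicate 1 was not the highest, with a log2 fold change of 0.55 ± 0.077 (limma adjusted p = 0.0090) and 0.58 without that library (adjusted p = 0.0015). On the same-sum scale the value for HNRNPU was 0.29 (adjusted p = 0.083). HNRNPU shares 15.6% of its exon bases with COX20.

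HNRNPK, a poly(C)-binding protein, had 104, 101 and 103 FPKM in Vector and 185, 155 and 156 FPKM in LOC_OE. It is encoded on chromosome 9 from 83968083 to 83980616, minus strand. Every LOC_OE library was above every Vector library, and the log2 fold change was 0.68 ± 0.099 (limma adjusted p = 0.0096). HNRNPM, which takes part in splice site choice, had the largest log2 fold change of the hnRNPs. Its FPKM was 59.2, 55.9 and 52.9 in Vector and 108, 91.1 and 80.4 in LOC_OE, a log2 fold change of 0.72 ± 0.125 (limma adjusted p = 0.015). For HNRNPC, a protein that binds uridine tracts in nascent RNA, the Vector libraries held 62.7, 61.2 and 62.3 FPKM. The LOC_OE libraries held 120, 85.1 and 85.4 FPKM, with a log2 fold change of 0.62 ± 0.148 (limma adjusted p = 0.033). LOC_OE replicate 1 was the highest library for all 3 genes, and without it their log2 fold changes were 0.60, 0.61 and 0.45, all at an adjusted p of at most 0.0033.

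HNRNPH1, which binds runs of guanine, had 28.99, 32.8 and 32.4 FPKM in Vector and 54.3, 45.4 and 45.5 FPKM in LOC_OE. The log2 fold change was 0.60 ± 0.105 (limma adjusted p = 0.015), and 0.52 without LOC_OE replicate 1 (adjusted p = 0.0033). HNRNPH3 of the same subfamily was higher by 0.44 (adjusted p = 0.022), from 17.9 to 19.99 FPKM in Vector to 24.9 to 28.4 FPKM in LOC_OE, and by 0.38 without LOC_OE replicate 1 (adjusted p = 0.0072). HNRNPH2, the third H protein measured, was at 36.1 to 39.2 FPKM in Vector and 35.9 to 41.4 FPKM in LOC_OE, and the groups overlapped (log2 fold change 0.034, adjusted p = 0.81, and 0.083 without LOC_OE replicate 1, adjusted p = 0.31). HNRNPF, a relative of the H proteins, had 133, 131 and 129 FPKM in Vector and 163, 141 and 138 FPKM in LOC_OE. Its groups did not overlap, but the log2 fold change of 0.17 was not called (adjusted p = 0.27). It was 0.090 without LOC_OE replicate 1 (adjusted p = 0.18) and turned to -0.094 on the same-sum scale.

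Other hnRNPs were high in LOC_OE replicate 1 and near or under the Vector level in the other LOC_OE libraries. HNRNPA3, an A/B type hnRNP, had 48.1, 51.3 and 51.8 FPKM in Vector and 75.9, 41.7 and 40.6 FPKM in LOC_OE. Its log2 fold change was 0.0037 ± 0.239 (limma adjusted p = 0.99) with all libraries and -0.29 without LOC_OE replicate 1 (adjusted p = 0.0094), so that 1 library decides the sign. HNRNPL, which binds CA-rich RNA, had 27.3, 27.4 and 26.5 FPKM in Vector and 46.7, 25.7 and 24.3 FPKM in LOC_OE. The change was 0.18 (adjusted p = 0.63) with all libraries and -0.11 without replicate 1 (adjusted p = 0.12). HNRNPA2B1, a relative of HNRNPA1, had 79.4, 78.8 and 81.9 FPKM in Vector and 151, 87.9 and 84.1 FPKM in LOC_OE, which did not overlap, yet its log2 fold change of 0.37 was not called (adjusted p = 0.28), nor was that of 0.10 without LOC_OE replicate 1 (adjusted p = 0.14). HNRNPD, left out of the members, followed the same order, with 30.5, 31.8 and 31.7 FPKM in Vector and 53.4, 27.7 and 26.7 FPKM in LOC_OE. Its log2 fold change was 0.12 (adjusted p = 0.77), and -0.20 without LOC_OE replicate 1 (adjusted p = 0.021). The hnRNPs not described so far, HNRNPDL, HNRNPAB, HNRNPR, HNRNPLL, HNRNPUL1, HNRNPUL2 and HNRNPA0, had log2 fold changes between 0.57 for HNRNPDL and 0.059 for HNRNPA0, and none of the 7 was called with all libraries. With LOC_OE replicate 1 left out, HNRNPDL was called higher by 0.28 (adjusted p = 0.0074), HNRNPR by 0.19 (adjusted p = 0.035) and HNRNPLL by 0.20 (adjusted p = 0.038). HNRNPA0 and HNRNPUL1 then turned to -0.18 and -0.065, and HNRNPAB and HNRNPUL2 were at 0.13 and 0.016, none of these 4 being called.

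**Figure D2:**
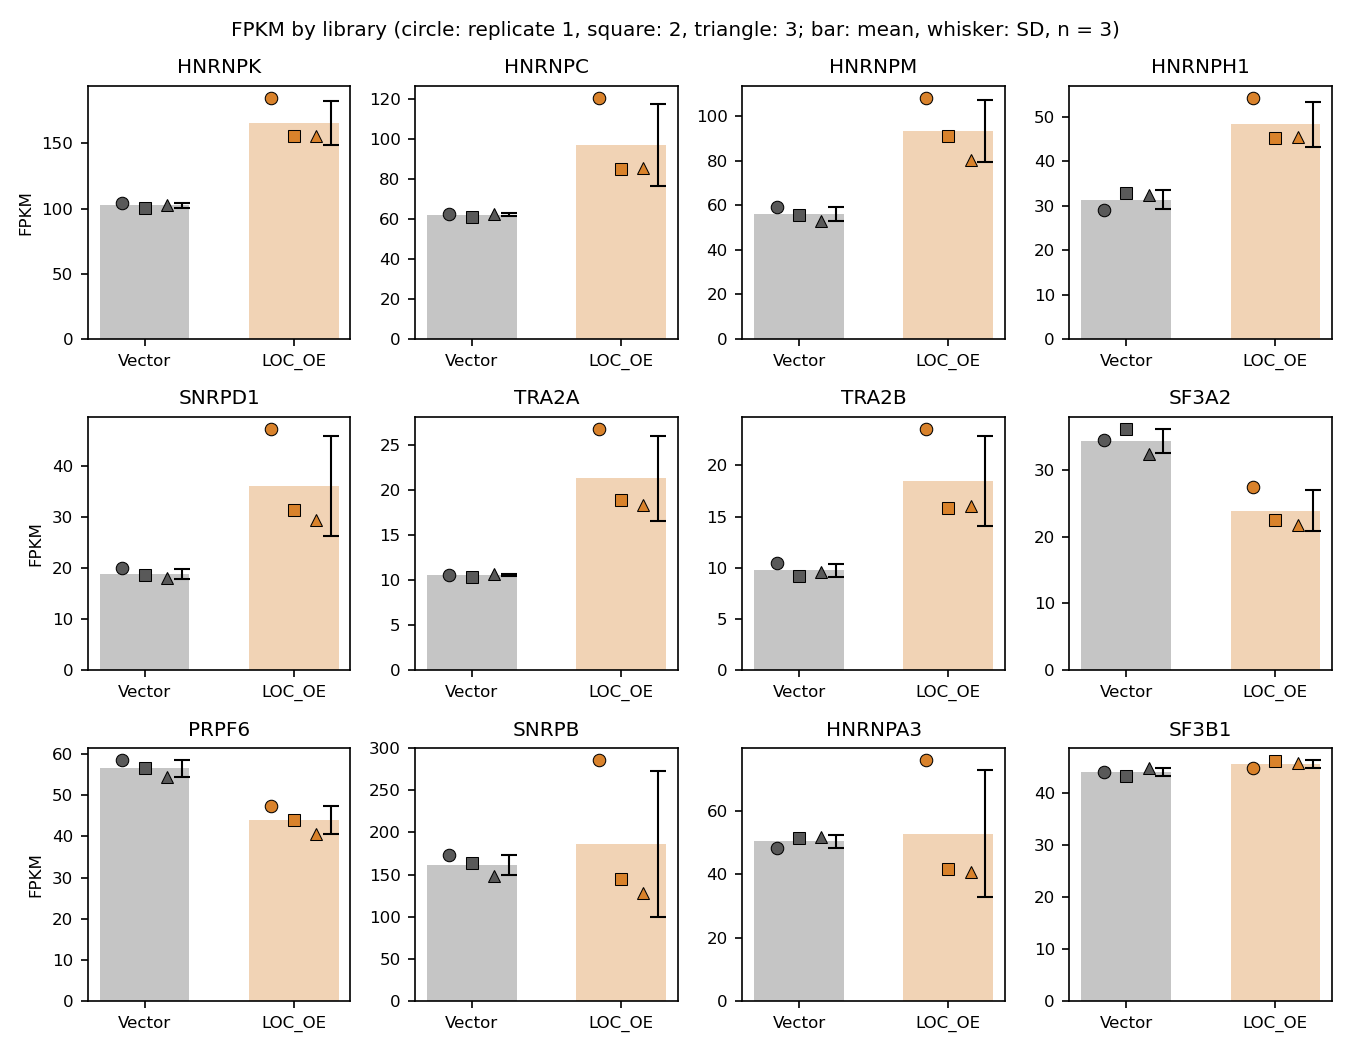
FPKM of 12 members in each library, with the mean as bar and the SD as whisker (n = 3 per group); circles, squares and triangles are replicates 1, 2 and 3. The LOC_OE points lie above the Vector points for the first 7 genes and below them for SF3A2 and PRPF6, whereas for SNRPB and HNRNPA3 only LOC_OE replicate 1 lies above Vector.

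Copies of members can take or give reads. GENCODE names 180 pseudogenes after 22 members, and 83 of them had a read. HNRNPA1 has 74 of them, of which 32 had reads, and the reads on these came to 1.97% of the reads on HNRNPA1. Of the 150-base windows of HNRNPA1 transcripts, 14.1% also occur in a copy, while 42 of the 55 members tested had no window in common with another gene. HNRNPA1P48, listed as protein coding and therefore a member, was covered by 310, 284 and 314 reads in Vector against 373, 363 and 346 in LOC_OE, and was called higher with a log2 fold change of 0.47 (adjusted p = 0.012), and 0.46 without LOC_OE replicate 1 (adjusted p = 0.0037). The copy HNRNPA1L2 went from 84, 93 and 81 reads in Vector up to 564, 543 and 524 in LOC_OE, a log2 fold change of 2.60 (adjusted p = 2.9e-04). HNRNPA1P7 took 80, 83 and 73 Vector reads against 376, 295 and 312 LOC_OE reads, and 61.8% of its windows occur in other genes. For HNRNPA1P10 the same comparison was 190, 170 and 158 against 354, 299 and 248. HNRNPA1P16 moved the other way, from 77, 79 and 86 reads to 47, 41 and 32. It shares 16.5% of its windows with SRR and none with HNRNPA1. The copies that share windows with HNRNPA1 did not follow its level in common proportion. Their values stay uncertain because reads of near-identical copies can be split between them.

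**Figure D3:**
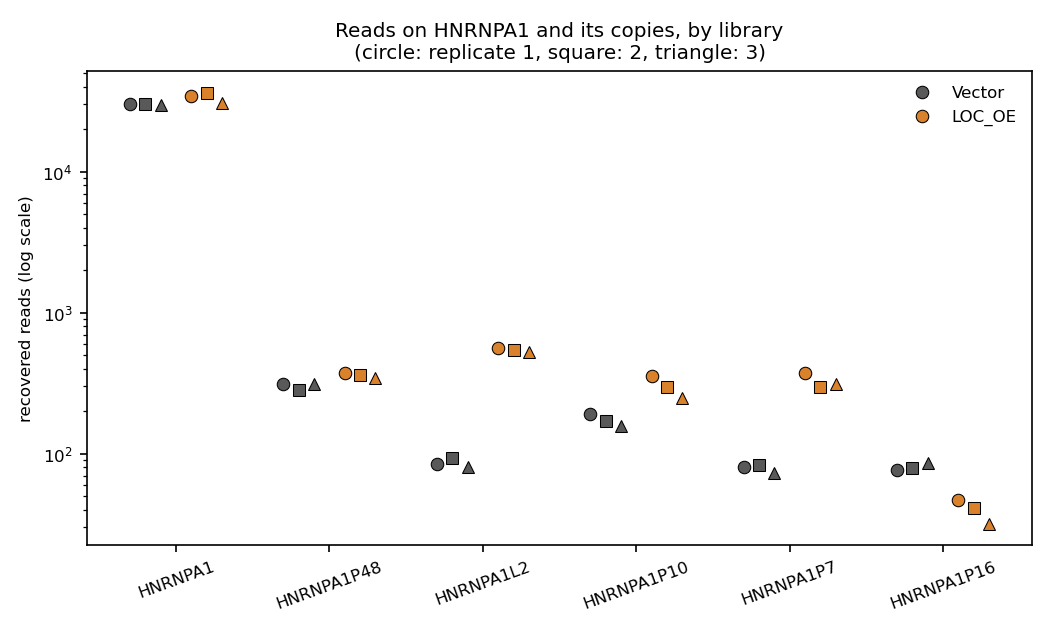
Recovered reads on HNRNPA1, HNRNPA1P48, HNRNPA1L2 and 3 pseudogenes in each library, on a log axis, with grey for Vector and orange for LOC_OE. HNRNPA1 stays between 29841 and 36253 reads, while HNRNPA1L2 goes from 81 to 93 reads in Vector to 524 to 564 reads in LOC_OE.

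The Sm core showed 1 of 7 genes tested called higher and 0 lower, where all genes gave 10.7% and 9.74%. At an unadjusted p under 0.05 there were 6, against 5855 of all 16061 genes. All 7 had a log2 fold change above 0 and the median was 0.61, against 0.36 after rescaling to the same sum and 0.34 without LOC_OE replicate 1, with SNRPB below 0 in both. Without that library 6 were called higher, beside 19.4% of all genes. SNRPD1, on chromosome 18 from 21612267 to 21633524 on the plus strand, had 19.9, 18.5 and 18.0 FPKM in Vector and 47.1, 31.3 and 29.4 FPKM in LOC_OE. All LOC_OE libraries were above all Vector libraries, and the log2 fold change was 0.87 ± 0.180 (limma adjusted p = 0.023), the largest of the class. SNRPD2 had 87.2, 86.0 and 76.4 FPKM in Vector and 174, 111 and 95.9 FPKM in LOC_OE, with a log2 fold change of 0.56 (adjusted p = 0.12). In the same way SNRPG went from 37.3, 39.2 and 31.7 FPKM to 88.4, 45.3 and 46.0 FPKM, a log2 fold change of 0.65 that was not called (adjusted p = 0.13). All 3 genes were called without LOC_OE replicate 1, SNRPD1 at 0.66, SNRPD2 at 0.31 and SNRPG at 0.34 (adjusted p = 0.0016, 0.043 and 0.038).

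SNRPF, SNRPE and SNRPD3, further subunits of the ring, reached 0.69, 0.61 and 0.58 on the log2 fold change scale (adjusted p = 0.069, 0.096 and 0.10) with no overlap between groups. Without LOC_OE replicate 1 their log2 fold changes were 0.44, 0.35 and 0.32, and they passed at adjusted p-values of 0.014, 0.0042 and 0.0039. SNRPB, which encodes the SmB and SmB′ proteins, differed from the other Sm genes. It had 173, 163 and 149 FPKM in Vector and 286, 144 and 128 FPKM in LOC_OE. LOC_OE replicate 1 was far above the Vector libraries and the other 2 were below them, so the log2 fold change of 0.11 (adjusted p = 0.82) became -0.24 without it (adjusted p = 0.075). SNRPB shares 20.03% of its exon bases with AL049650.1. SNRPN, the paralog of SNRPB that is expressed mainly in brain, was listed at 0 in every library and was not tested. It shares exon bases with SNURF and SNHG14.

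Of the U1 and U2 proteins, 0 of 4 were called by limma and 0 had an unadjusted p under 0.05. With voom on the recovered reads, 0 were called and 0 had an unadjusted p under 0.05. SNRPC, a U1 protein that contacts the 5′ splice site, had 72.5, 67.6 and 71.8 FPKM in Vector and 125, 74.1 and 67.4 FPKM in LOC_OE. The U1 A protein, SNRPA, had 29.2, 31.6 and 29.6 FPKM in Vector and 50.4, 32.7 and 30.9 FPKM in LOC_OE. The U2 genes showed the same order, SNRPA1 with 13.3, 12.3 and 13.5 FPKM against 24.3, 12.8 and 12.4 FPKM, and SNRPB2 with 29.1, 23.8 and 27.4 FPKM against 40.5, 27.2 and 27.0 FPKM. For all 4, LOC_OE replicate 1 was the highest library and the other LOC_OE libraries lay within or near the Vector range. Their log2 fold changes were 0.27, 0.29, 0.25 and 0.21, and 0.0011, 0.077, -0.046 and 0.021 without LOC_OE replicate 1.

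Within SF3A and SF3B, 1 of 9 genes was higher and 1 was lower, where all genes gave 10.7% and 9.74%. At an unadjusted p under 0.05 there were 3, against 5855 of all 16061 genes. The median log2 fold change of the class was 0.049, near that of all genes, and it was -0.10 without LOC_OE replicate 1 and -0.21 on the same-sum scale. Without that library 2 were higher and 3 were lower, beside 19.4% and 16.1% of all genes. SF3A2, a zinc finger subunit of SF3A, lies on chromosome 19 from 2236504 to 2248679 on the plus strand. It had 34.5, 36.1 and 32.5 FPKM in Vector and 27.5, 22.5 and 21.8 FPKM in LOC_OE, so every LOC_OE library was below every Vector library. Its log2 fold change was -0.51 ± 0.109 (limma adjusted p = 0.025) and -0.61 without LOC_OE replicate 1 (adjusted p = 0.0017). SF3A2 shares 12.7% of its exon bases with PLEKHJ1.

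SF3B6, which contacts the branch point adenosine, was called higher, from 68.2, 65.4 and 61.3 FPKM in Vector to 91.8, 82.4 and 76.9 FPKM in LOC_OE. Its log2 fold change was 0.36 ± 0.098 (limma adjusted p = 0.047), 0.29 without LOC_OE replicate 1 (adjusted p = 0.018) and 0.10 on the same-sum scale (adjusted p = 0.29). SF3B3 had the largest log2 fold change of the class, at 0.46 ± 0.140, but was not called (adjusted p = 0.063), while its 0.31 without LOC_OE replicate 1 was (adjusted p = 0.014). Its FPKM was 41.0, 36.4 and 37.1 in Vector and 64.8, 46.9 and 48.4 in LOC_OE. SF3B1, the scaffold of SF3B, was at 44.0, 43.4 and 44.9 FPKM in Vector and 44.8, 46.3 and 45.9 FPKM in LOC_OE, and the groups overlapped (log2 fold change 0.049 ± 0.071, adjusted p = 0.66, and 0.062 without LOC_OE replicate 1, adjusted p = 0.29). For SF3B5, the small and most abundant subunit, Vector gave 190, 157 and 153 FPKM and LOC_OE gave 266, 148 and 120 FPKM. Its log2 fold change was 0.018 ± 0.290 (adjusted p = 0.97) and -0.31 without LOC_OE replicate 1 (adjusted p = 0.12). The 4 genes of this class in which LOC_OE replicate 1 was above Vector and the other LOC_OE libraries were below all Vector libraries were SF3B5, SF3B4, SF3B2 and SF3A1. The log2 fold changes of SF3B4, SF3B2, SF3A1 and SF3A3 were -0.024, -0.16, 0.074 and 0.13, none of them called with all libraries, and without LOC_OE replicate 1 they were -0.21, -0.27, -0.10 and -0.027. SF3B4 and SF3B2 were then called lower (adjusted p = 0.044 and 0.014).

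Of 13 PRPF genes tested, 3 were higher and 1 was lower, where all genes gave 10.7% and 9.74%. At an unadjusted p under 0.05 there were 7, against 5855 of all 16061 genes. The median log2 fold change of the PRPF genes was 0.27, and 9 of 13 were above 0. On the same-sum scale that median was 0.030, with 7 of 13 above 0. Without LOC_OE replicate 1, 6 were higher and 1 was lower, with a median of 0.16 and 8 of 13 above 0. All genes then gave 19.4% higher and 16.1% lower, with 8243 of 16061 above 0. PRPF6, a bridging protein of the tri-snRNP, was the gene called lower. It lies on chromosome 20 from 63981135 to 64033100, plus strand, and had 58.5, 56.6 and 54.5 FPKM in Vector and 47.4, 44.0 and 40.5 FPKM in LOC_OE. All LOC_OE libraries were below all Vector libraries, with a log2 fold change of -0.36 ± 0.089 (limma adjusted p = 0.036) and -0.41 without LOC_OE replicate 1 (adjusted p = 0.0043). The PRPF genes called higher included PRPF3, by 0.49 on the log2 scale (adjusted p = 0.031), and PRPF39, by 0.34 (adjusted p = 0.043). The values without LOC_OE replicate 1 were 0.38 (adjusted p = 0.0058) and 0.30 (adjusted p = 0.030). Neither was called on the same-sum scale, where their adjusted p-values were 0.075 and 0.45. PRPF3 belongs to the U4/U6 particle, and PRPF39 is a relative of a yeast U1 protein.

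PRPF4, the partner of PRPF3, had the largest log2 fold change of the class, at 0.51 ± 0.247 (adjusted p = 0.18). Vector gave 25.4, 23.9 and 26.0 FPKM and LOC_OE gave 55.5, 29.5 and 28.97 FPKM, with no overlap but with LOC_OE replicate 1 far above the other libraries. Without it the log2 fold change was 0.21 and was called (adjusted p = 0.025). PRPF8, the protein at the centre of the spliceosome, had 56.3, 57.1 and 56.5 FPKM in Vector and 76.2, 61.5 and 65.3 FPKM in LOC_OE, a log2 fold change of 0.25 (adjusted p = 0.13) that became 0.16 and was called without LOC_OE replicate 1 (adjusted p = 0.042). PRPF19, a ubiquitin ligase and the most abundant PRPF gene, had 90.1, 83.9 and 77.7 FPKM in Vector and 106, 76.9 and 67.0 FPKM in LOC_OE. Its log2 fold change was -0.034 (adjusted p = 0.91), and -0.22 without LOC_OE replicate 1 (adjusted p = 0.10). Further PRPF genes were not called, with log2 fold changes of 0.37 for PRPF38B, 0.32 for PRPF4B, 0.27 for PRPF38A, 0.19 for PRPF31, -0.043 for PRPF18 and -0.090 for PRPF40B. PRPF38B was called without LOC_OE replicate 1, at 0.29 (adjusted p = 0.036), and the other 5 were not, at 0.25, 0.16, -0.088, -0.17 and -0.070 in the same order. PRPF40B, the least abundant member tested, had 0.423 to 0.667 FPKM over the 6 libraries. Of the exon bases of PRPF40B and PRPF18, 48.7% and 48.5% also lie in other genes, so their values are uncertain. The same limit holds to a lesser degree for HNRNPUL2 (44.1%), PRPF31 (32.0%), SNRPD3 (24.6%), HNRNPH2 (16.3%) and PRPF39 (13.2%).

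TRA2A had the largest log2 fold change of the 55 members tested, followed by SNRPD1 and TRA2B. TRA2A, on chromosome 7 from 23504780 to 23532041 on the minus strand, was at 10.6, 10.4 and 10.6 FPKM in Vector and at 26.7, 18.9 and 18.3 FPKM in LOC_OE. Vector averaged 10.5 ± 0.135 FPKM and LOC_OE 21.3 ± 4.72 FPKM (SD, n = 3), and the log2 fold change was 0.93 ± 0.148 (limma adjusted p = 0.012). TRA2B, on chromosome 3 from 185915906 to 185938136 on the minus strand, was at 10.4, 9.23 and 9.60 FPKM in Vector and at 23.5, 15.8 and 16.1 FPKM in LOC_OE. Here the means were 9.75 ± 0.610 FPKM and 18.5 ± 4.38 FPKM, and its log2 fold change was 0.84 ± 0.159 (limma adjusted p = 0.018). For both genes all LOC_OE libraries lay above all Vector libraries, and LOC_OE replicate 1 was the highest. Without it they changed by 0.76 and 0.66 (adjusted p = 8.2e-04 and 0.0017). Without Vector replicate 2 the adjusted p-values were 0.064 and 0.085, the highest over the fits that leave out 1 library. Neither gene shares exon bases with another gene.

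LOC_OE replicate 1 had the highest FPKM of the 6 libraries in 47 of the 55 members (85.5%), against 33.4% of all genes tested. The groups did not overlap in 31 members that were higher in LOC_OE (56.4%, all genes 24.4%) and in 2 that were lower (3.64%, all genes 20.9%). In a further 16 members (29.1%), LOC_OE replicate 1 alone was above the Vector libraries, as in 12.1% of all genes. In 11 of these 16, both other LOC_OE libraries were below all Vector libraries, which was so for 5.35% of all genes. Relative to the Vector mean, the median log2 difference of the members was 0.54 in LOC_OE replicate 1, 0.18 in replicate 2 and 0.15 in replicate 3, where all genes gave 0.025, 0.0074 and 0.0038. By class, the medians in LOC_OE replicate 1 were 1.23 for TRA2, 1.14 for the Sm core, 0.77 for the U1 and U2 proteins, 0.54 for the hnRNPs, 0.43 for SF3A and SF3B and 0.42 for the PRPF genes. In replicates 2 and 3 they were 0.72 and 0.70 for TRA2, 0.36 and 0.34 for the Sm core and 0.21 and 0.18 for the hnRNPs. The U1 and U2 proteins were then at 0.045 and -0.028, and SF3A and SF3B at -0.091 and -0.11. These are bulk libraries, in which a change in the kinds of cells and a change of RNA per cell cannot be told apart.

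**Figure D4:**
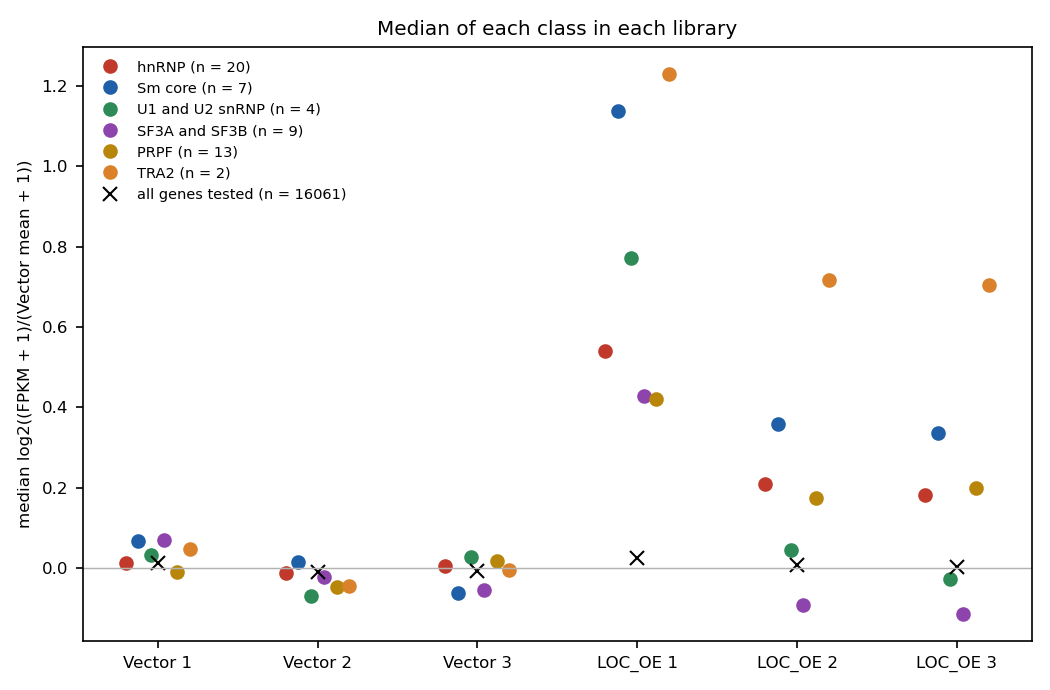
Median over each class of log2((FPKM + 1)/(Vector mean + 1)) in each library, with crosses for all 16061 genes tested. In LOC_OE replicate 1 every class lies between 0.42 and 1.23, and in replicates 2 and 3 the classes spread from -0.11 to 0.72.

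**Figure D5:**
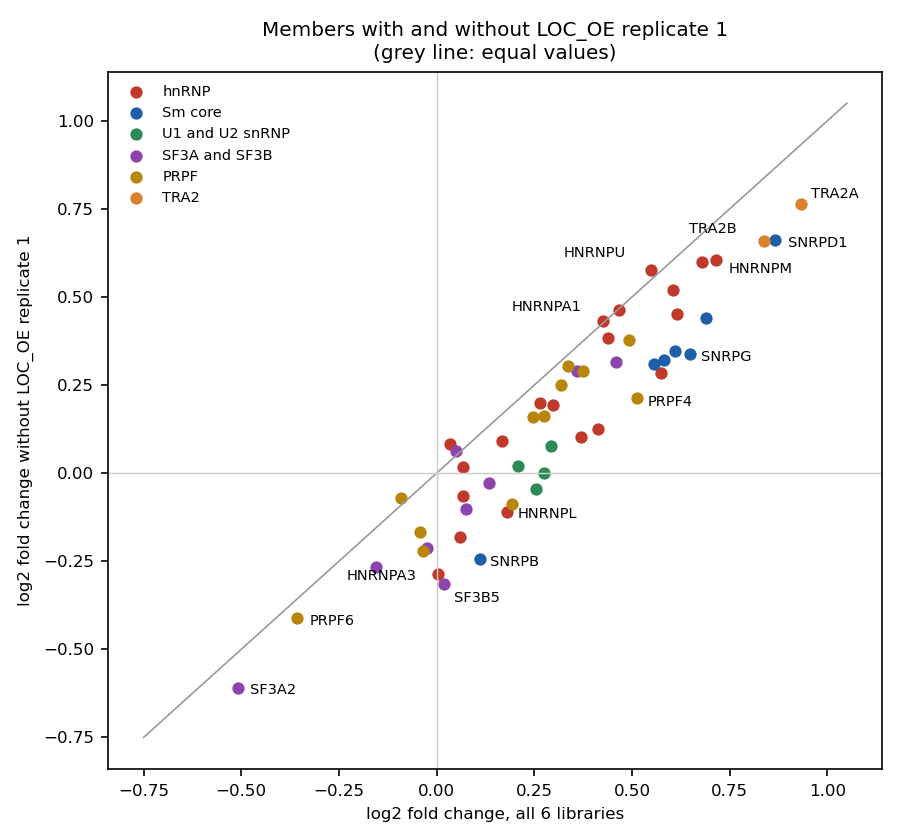
Log2 fold change of 54 members with all 6 libraries (x axis) and without LOC_OE replicate 1 (y axis), with colours for the classes and a grey line for equal values. Most points lie below the line, HNRNPU and HNRNPA1 lie on or just above it, and SNRPB, HNRNPA3, HNRNPL and SF3B5 are above 0 on the x axis and below 0 on the y axis.

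A list of 70 other splicing genes gave the setting of the members. Of these, 12 were higher and 3 were lower at an adjusted p under 0.05, 7 and 0 with the fold change of 1.5, and the median change on the log2 scale was 0.28. All genes gave 10.7% higher and 9.74% lower, 4.63% and 5.58% with the fold change, and a median of 0.019. The first 2 shares also stand beside the counts of each list below. Without LOC_OE replicate 1, 21 were higher and 6 lower, with 3 and 1 reaching the fold change. All genes then gave 19.4% and 16.1%, and 4.56% and 5.84% with the fold change. Without any 1 of the Vector libraries 0 of the 70 were called in either direction by limma, although 16 to 19 were higher at an unadjusted p under 0.05. All genes then gave 0.897% to 2.15% called higher, and 2164 to 2431 of 16061 higher at an unadjusted p under 0.05. Of the 10 Sm-like proteins, 3 were higher and 0 lower, and LSM3 had the largest log2 fold change (0.83, adjusted p = 0.029), while LSM11 of the histone-processing particle had the smallest (-0.061, adjusted p = 0.68). They were at 0.61 (adjusted p = 0.0033) and -0.075 (adjusted p = 0.59) without LOC_OE replicate 1. Of the 8 branch point and 3′ splice site factors, 2 were higher. PHF5A, a small SF3B subunit, had 23.7, 23.4 and 22.8 FPKM in Vector and 68.1, 41.6 and 35.9 FPKM in LOC_OE (log2 fold change 0.97, adjusted p = 0.030), and U2AF2, which binds the polypyrimidine tract, had the smallest value of that list (0.21, adjusted p = 0.68). In the fit without LOC_OE replicate 1, PHF5A was at 0.71 (adjusted p = 0.0019), whereas U2AF2 turned to -0.20 and was called lower (adjusted p = 0.016). Of the 14 snRNP-specific proteins 1 was called, EFTUD2, a GTPase of the tri-snRNP (0.65, adjusted p = 0.031), and SART1 had the smallest value (-0.33, adjusted p = 0.32). Without that library EFTUD2 was at 0.48 (adjusted p = 0.0040) and SART1 was called lower at -0.58 (adjusted p = 0.0020). In the Prp19 complex and catalytic step list, 4 of 17 were higher and 1 was lower, with BUD31 at 0.57 (adjusted p = 0.025) and XAB2 at -0.55 (adjusted p = 0.034), which were 0.45 and -0.70 without LOC_OE replicate 1 (adjusted p = 0.0030 and 0.0012). Of the 14 assembly factors 1 was higher, STRAP of the SMN complex (0.65, adjusted p = 0.033), and GEMIN2 had the smallest value (-0.069, adjusted p = 0.77). They were at 0.48 (adjusted p = 0.0025) and -0.12 (adjusted p = 0.59) without that library. Of the 7 kinases of SR proteins, 1 was higher, SRPK1 (0.31, adjusted p = 0.040), and 2 were lower, with CLK3 at -0.46 (adjusted p = 0.019). SRPK1 and CLK3 stood at 0.34 and -0.51 without it (adjusted p = 0.0044 and 0.0056). With all libraries, the kinases were the only one of the 6 lists with more genes called lower than higher.

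The remaining member was the read-through gene HNRNPUL2-BSCL2, which had 1 read in Vector replicate 2 and none in the other libraries and was not tested. All its exon bases lie in HNRNPUL2 or BSCL2.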

How the data were processed

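RNA from RKO cells was sequenced in 3 Vector and 3 LOC_OE libraries, grouped by their titles. Libraries were made with the NEBNext Ultra kit and sequenced as paired ends on an Illumina instrument, and the authors deposited 1 table of FPKM. The submitters' processing notes name HISAT2 2.0.4, StringTie 1.3.0 and hg38, and the tool that made the FPKM and the strand of the reads are not given in the sources used here. Antisense and overlapping genes and copies can therefore share reads. All 58735 gene identifiers matched GENCODE release 29, 27612 genes were at 0 throughout, and 0 columns of values were left unused.

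The FPKM times the merged exon length were whole multiples of 1 step per library (tolerance 0.05 reads) for 100% of the values above 0. The totals of 15008842 to 18410231 reads on genes give counting error only, since reads carry no molecular identifiers. The series describes the replicates as biological, but nothing says whether they came from separate infections, so p-values measure the spread between these libraries.

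Differences were fitted by limma 3.58.1 in R 4.3.3, on log2(FPKM + 1) and with the trend option, over the 16061 genes with at least 0.5 FPKM in at least 3 libraries, without further scaling. The pseudocount shrinks the fold change of low genes. A call needed a Benjamini-Hochberg adjusted p under 0.05, or in addition a fold change of at least 1.5. The fit was tested on simulated data with known changes. For each gene the simulated noise was independent and of equal spread in every library. The simulation therefore cannot show how the fit behaves with a library that stands apart, as LOC_OE replicate 1 does. Alternatives were other pseudocounts, filters and scalings, no variance trend, voom on the reads, unadjusted p, the replicate number as a block and leaving out each library. The voom fit used the library sizes implied by the FPKM, so it keeps their gap to the reads on genes. Figures were drawn with matplotlib 3.10.9.

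The members, the list of splicing genes and the rules were chosen with earlier results of these data known. Members are named if called with the fold change, if among the 2 most abundant of their class or at either end of its log2 fold changes, if among the 6 that move most without LOC_OE replicate 1, or if TRA2A or TRA2B. HNRNPD, copies of members and both ends of each list of other splicing genes are also named. The remaining calls, the members needed to complete a class, and HNRNPA2B1, HNRNPH2, SF3B1 and PRPF40B were described after their values were seen. The values of 1 member are counted but not reported here.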

Additional observations from a re-analysis of the deposited data

How the results depend on the processing

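The 26 members chosen by the naming rule were followed through the alternatives. With all libraries kept, 205 of their values kept direction and side of the threshold, 2 crossed to an adjusted p under 0.05, 10 crossed out of it and 17 changed sign. Judged by unadjusted p, 4 more passed 0.05. Members higher in LOC_OE numbered 15, and 9 with no filter on low FPKM, 7 on the same sum of FPKM, 27 at unadjusted p and 0 to 27 when 1 library was left out. Over all 16061 genes 1712 were higher, and 716 on the same sum, 3111 at unadjusted p and 144 to 3117 without 1 library. With no filter 1052 of 31123 genes were higher. Members lower numbered 2, and 5 by quantile normalization, 1 with the replicate block and 0 to 5 when 1 library was left out. All genes lower numbered 1565, and 1802 by quantile normalization, 940 with the replicate block and 227 to 2586 without 1 library. With the fold change, 7 members were higher, and 3 on the same sum, 3 by quantile normalization and 0 to 7 without 1 library. With it 0 were lower, and 2 on the same sum, 2 by quantile normalization and 0 to 1 without 1 library. For most of these settings the matching counts over all genes are not given. At an unadjusted p under 0.05 with the fold change, the same sum gave 3 members higher and 2 lower, beside 336 and 2092 of 16061 genes. By quantile normalization it was 3 and 2, beside 763 and 971 genes. Of the 70 other splicing genes 12 were higher, and 6 with no filter, 5 with the replicate block, 26 at unadjusted p and 0 to 21 without 1 library. The 3 lower became 1 with no filter, 5 on the same sum and 0 to 6 without 1 library. All genes lower numbered 1229 of 31123 with no filter and 3138 of 16061 on the same sum. The cause of these moves was not tested.

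Among these 26, the sign changed for members that were not called. On the same sum of FPKM the log2 fold changes were -0.15 for SNRPB, -0.24 for SF3B5, -0.094 for HNRNPF, -0.011 for PRPF8, -0.25 for HNRNPA3, -0.073 for HNRNPL and -0.045 for SNRPB2. A further 8 members, SF3B1, SF3A1, SF3A3, PRPF31, HNRNPUL1, HNRNPUL2, HNRNPA0 and HNRNPH2, also turned below 0 there, 15 in all. By quantile normalization they were -0.25 for SNRPB, -0.33 for SF3B5, -0.17 for HNRNPF, -0.0089 for SNRPC, -0.022 for PRPF8, -0.28 for HNRNPA3, -0.051 for HNRNPL and -0.018 for SNRPB2. By median-of-ratios rescaling SF3B5 was at -0.016 and HNRNPA3 at -0.030. Leaving out 1 library gave ranges of -0.24 to 0.33 for SNRPB, -0.31 to 0.26 for SF3B5, -0.22 to 0.11 for PRPF19, -0.29 to 0.16 for HNRNPA3, -0.11 to 0.35 for HNRNPL and -0.046 to 0.41 for SNRPA1.

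The replicate numbers were not shown to pair the libraries. Same-numbered libraries deviated together with correlations of 0.111, -0.034 and 0.117, and differently numbered ones with -0.128 to 0.058. These values do not decide whether the libraries are paired. With the replicate number as a block, 10 members were higher and 1 was lower. Calls fell for all genes too, to 1125 higher and 940 lower of 16061, from 1712 and 1565. The PRPF genes were then 0 of 13 called by limma, with 7 at an unadjusted p under 0.05, and the adjusted p was 0.056 for PRPF6, 0.061 for PRPF3 and 0.074 for PRPF39. It was 0.056 for SF3B6 and 0.060 for HNRNPH3. Under that block 7 members were higher with the fold change. At an unadjusted p under 0.05 with the fold change, 10 members were higher and 0 lower there, beside 1001 and 1101 of 16061 genes.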
